A study of Mus musculus with 18 samples.

Results

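The genes described here encode the subunits of the oxidative phosphorylation system. They were taken from the count table by name: Ndufa, Ndufb, Ndufc, Ndufs and Ndufv (complex I), Sdha to Sdhd (complex II), Uqcr (complex III), Cox4 to Cox8 (complex IV) and Atp5 (complex V) among nuclear genes, and mt-Nd, mt-Co, mt-Cyt and mt-Atp among genes of the mitochondrial genome. Names of pseudogenes and of the Ndufaf assembly factors were left out. Of 52636 genes in the table, 98 matched, and 93 had at least 50 counts summed over the libraries: 80 nuclear and 13 mitochondrial. The 5 that did not were the muscle, testis or lung isoforms Cox7b2 and Cox8c (0 counts each), Cox6a2 (2), Cox8b (10) and Cox4i2 (21), and the lowest that did were Cox7a1 (107) and Cox6b2 (206). The nuclear genes comprised 36 of complex I, 4 of complex II, 8 of complex III, 15 of complex IV and 17 of complex V. The names Atp5s and Atp5sl match the rule but do not stand for subunits of the ATP synthase, and Cox7a2l encodes a factor that joins complexes into supercomplexes. Ndufa4, named for complex I, is counted here with complex IV, where its protein resides.

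Oxidative phosphorylation passes electrons from NADH and succinate along complexes I to IV to oxygen, and complex V, the ATP synthase, uses the resulting proton gradient to make ATP. Complexes I, III, IV and V combine subunits from the nucleus, translated in the cytosol and imported, with a few core subunits encoded and translated inside the mitochondrion, while complex II is wholly nuclear. Mitochondrial genes are transcribed from each strand as long precursors that are cut into single RNAs, so most of their RNAs begin from shared transcripts and come to differ through processing and decay. In epidermis, oxidative metabolism is known to change with proliferation and differentiation of keratinocytes.

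RNA-seq was made from epidermal cells of C57BL/6 mice sorted as living EpCAM+ CD45- CD140a- CD31- cells, although the source named in the labels is whole skin. Animals were Zfp36 fl/fl littermate controls, whose floxed alleles are intact, or Zfp36 ΔK14 mice, which lost Zfp36 through a Cre recombinase driven by the human keratin 14 promoter and so active in keratinocytes and other cells that use that promoter. The protein of Zfp36, tristetraprolin (TTP), binds RNA and speeds the decay of mRNAs with AU-rich elements. Each genotype contributed mock-treated skin (mock), nontumoral skin next to tumors (treated) and papillomas (tumor), with 3 columns in each group. Mice were 8 weeks old at the start. The mutagen DMBA (200 nmol) was applied to treated and tumor animals on days 0 and 3, and the tumor promoter TPA (6.5 nmol) was given repeatedly from day 14. Whether each library came from 1 mouse or from several, and whether skin and tumors came from the same mice, is not given in the sources used here, so the p-values measure the spread between these samples only.

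The columns of mock ΔK14 replicates 2 and 3 held identical counts in all 52636 genes and were used once, which left 17 libraries and n = 2 in that group. Library totals ran from 2808550 to 9617985 counts. Zfp36 itself was between 152 and 716 CPM (the counts of a gene scaled to a common library size with TMM factors) in fl/fl libraries and between 10.1 and 38.6 CPM in ΔK14 libraries. The markers of sorted keratinocytes were abundant in all libraries, with summed levels of 6244 to 37292 CPM over 10 genes. They were higher in ΔK14 tumors (30664 to 32282 CPM) than in ΔK14 treated skin (6659 to 26833 CPM), while the fl/fl groups overlapped. Melanocyte markers (5 genes) summed to 8.85 to 33.1 CPM in fl/fl and 16.0 to 38.2 CPM in ΔK14 tumors. In treated skin they were at 52.7 to 130 and 51.6 to 366 CPM, although Pmel overlapped in both genotypes and Mlana in fl/fl cells. Summed fibroblast markers (6 genes, none at 0 in any group) were at 82.9 to 197 CPM in fl/fl and 30.4 to 386 CPM in ΔK14 tumors, against 377 to 624 CPM and 432 to 955 CPM in treated skin. In ΔK14 cells this gap came from Dcn alone (843, 230 and 350 CPM in treated skin, 2.91, 2.18 and 0.19 CPM in tumors), and the 5 other genes overlapped. Sebocyte markers (6 genes) were high in fl/fl tumor replicates 2 and 3 (4755 and 8682 CPM), while replicate 1 (359 CPM) lay within the 291 to 384 CPM of ΔK14 tumors. Leukocyte markers (10 genes) summed to 20.0 to 33.6 CPM in fl/fl and 64.4 to 90.6 CPM in ΔK14 tumors, a gap made by Cd74 (10.7 to 28.6 and 54.9 to 83.6 CPM), whereas the general leukocyte gene Ptprc was at 0 to 1.51 and 0.447 to 1.45 CPM. The part of these marker differences in the results below was not tested. In bulk libraries, a lower share of cells of a type and less RNA per cell cannot be told apart. The shallowest library, fl/fl tumor replicate 1, also had the fewest genes with a count (19219) and held the most ribosomal RNA (21.3% of counts, against 6.44% to 20.4% in the others), so counts of calls that rest on fl/fl tumors, and values it moves most, are also given without it. In mock skin of both genotypes, replicate 1 stood apart, for example in the subunit paralog Ndufa4l2 (4.88 CPM against 72.5 CPM in both others in fl/fl, and 4.87 against 33.2 CPM in ΔK14).

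Promoters of nuclear subunit genes are known for sites of the factors NRF1, GABP (an ETS factor) and YY1, which link their transcription, and a few are shown because members of different complexes carry the same letters near their start; those shown were chosen among members called in tumors against treated skin of either genotype. RefSeq promoters (GRCm38.p6, 250 bases before to 50 after the start) were matched for 65 of the 80 nuclear members. The letters searched on both strands were GCGCATGC for NRF1, CCGGAAGT for ETS and GABP, and AAGATGGC for YY1; these motifs do not contain each other. The capitals mark the match, which reads as the reverse complement where the motif lies on the other strand.
Atp5k, complex V, chr5:108434431-108434460, minus strand, NRF1: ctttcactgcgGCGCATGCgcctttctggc
Uqcr11, complex III, chr10:80406807-80406836, minus strand, NRF1 on the other strand: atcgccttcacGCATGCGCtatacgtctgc
Uqcrc1, complex III, chr9:108936667-108936696, plus strand, NRF1: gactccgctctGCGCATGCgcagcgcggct
Ndufa8, complex I, chr2:36049328-36049357, minus strand, NRF1 on the other strand: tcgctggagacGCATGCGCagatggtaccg
Ndufs4, complex I, chr13:114388045-114388074, minus strand, YY1: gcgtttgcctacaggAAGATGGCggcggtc
Atp5j2, complex V, chr5:145191500-145191529, minus strand, YY1: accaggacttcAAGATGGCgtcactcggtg

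The NRF1 letters stood in 10 of 65 member promoters (15.4%), against 670 of 19499 promoters in all (3.44%). For YY1 the counts were 8 members (12.3%) and 611 promoters in all (3.13%), and for ETS and GABP 5 members (7.69%) and 971 in all (4.98%). Any of the 3 motifs was found in 22 members (33.8%) and in 10.8% of all promoters. The other members lack only these exact letters in this window.

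Among mitochondrial genes the counts fell into 2 ranges that follow the order of the genes on the chromosome. Per kilobase of exon, the medians over 17 libraries ran from 2589 CPM per kb (mt-Nd4) to 8888 CPM per kb (mt-Co1) for 7 genes. They ran from only 12.4 (mt-Nd3) to 163 CPM per kb (mt-Atp8) for the other 6, mt-Co2, mt-Atp8, mt-Atp6, mt-Co3, mt-Nd3 and mt-Nd4l, which are neighbors at chrM:7013-10173 (GRCm38). The 80 nuclear members had a median of 35.5 CPM per kb, from 1.30 (Cox6b2) to 197 (Atp5a1, the alpha subunit of the ATP synthase). The levels of the 6 neighbors were thus near those of nuclear genes.

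**Figure D1:**
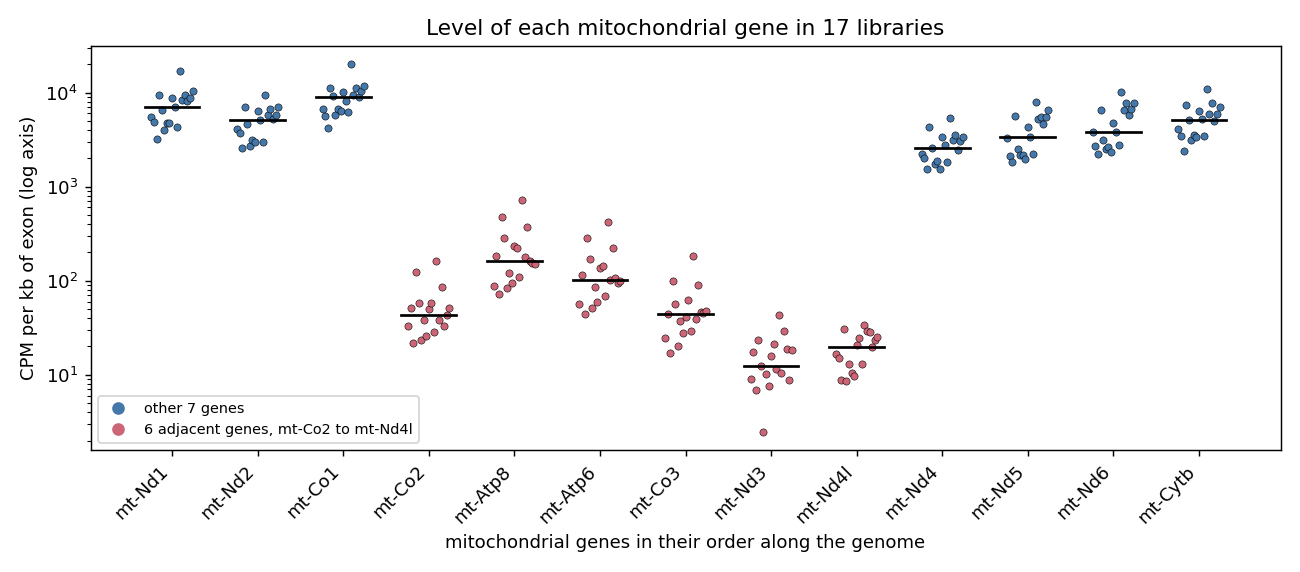
Level of the 13 mitochondrial protein-coding genes in CPM per kb (log axis), drawn in the order in which they lie on the mitochondrial chromosome, with each point a library. The 6 genes from mt-Co2 to mt-Nd4l lie far below the 7 others in each of the 17 libraries.

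These 6 neighbors correspond to a stretch that the nuclear genome carries a second time, on chromosome 1, where the annotation lists the copies as genes of their own. Of the 31-base words of mt-Co2, 100% occur in such other genes, as do 99.9% of mt-Co3, 99.5% of mt-Atp6, 98.9% of mt-Nd4l and 98.1% of mt-Nd3, against 7.47% of mt-Atp8, which lies between mt-Co2 and mt-Atp6. For the 7 other genes the share was 0% for mt-Nd1, 6.55% for mt-Cytb, 7.36% for mt-Nd6, 13.5% for mt-Nd2, 16.8% for mt-Nd5, 62.8% for mt-Nd4 and 63.9% for mt-Co1. The listed copies on chromosome 1 run on past that of mt-Nd4l (Gm10222) to an adjoining copy, Gm28439. The 6 neighbors therefore do not cover the whole copied stretch. The coding sequence of mt-Atp6 (678 bases) and its copy Gm10925 did not differ, nor did mt-Co2 and Gm28661 (681 bases), mt-Co3 and Gm28437 (783 bases) or mt-Nd4l and Gm10222 (294 bases). Over 345 bases, mt-Nd3 and Gm28438 differed at a single base, T3C, counted from 1 at the first base of the gene. The first 30 bases of both are shown, with that base in capitals.
mt-Nd3, chrM:9459-9806, plus strand: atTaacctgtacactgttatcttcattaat
Gm28438, nuclear copy on chromosome 1: atCaacctgtacactgttatcttcattaat

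Counts in the table were divided between these pairs in unequal parts. Summed over 17 libraries, mt-Co2 held 2991 counts and its copy 1447 (67.4% on the mitochondrial gene), mt-Atp6 7059 and 10317 (40.6%), mt-Co3 3295 and 6372 (34.1%), mt-Nd4l 527 and 1843 (22.2%) and mt-Nd3 447 and 6533 (6.40%). How reads with more than 1 placement were handled is not given in the sources used here. The levels of the 6 neighbors are therefore uncertain and are given apart from the 7 others where it matters. Among those 7, mt-Co1 and mt-Nd4 also share most of their words with other genes, so their levels are uncertain for the same reason. Conversely, mt-Atp8 shares few of its words and is grouped with the 6 by position and level. The grouping was made after their values were seen, and the reason for the low counts was not tested. For mt-Nd6, the gene of the light strand, reads of the opposite strand cannot be told apart either, since the use of strand is not given. Among nuclear members, Atp5l (69.7% of words shared with other genes), Atp5h (59.4%), Uqcrb (54.3%) and Ndufs3 (49.3%) are uncertain for the same kind of reason.

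The first question was how much of each library the mitochondrial and the nuclear subunits take up. Mitochondrial genes accounted for 4.26%, 3.11% and 2.33% of counts in the fl/fl mock libraries and for 6.39% and 3.84% in the ΔK14 mock libraries. In treated skin the share was 3.34%, 3.36% and 3.52% in fl/fl and 6.17%, 5.09% and 3.06% in ΔK14. In tumors it was 6.86%, 4.97% and 5.32% in fl/fl and 3.94%, 4.36% and 4.75% in ΔK14. All 3 fl/fl tumors thus lay above all fl/fl treated and mock libraries, whereas ΔK14 tumors lay inside the range of ΔK14 treated and mock skin. By group the mean was 3.23 ± 0.972% in fl/fl mock, 3.41 ± 0.0951% in fl/fl treated and 5.72 ± 1.01% in fl/fl tumors (SD, n = 3 each), the last being 5.15% without replicate 1. In ΔK14 cells it was 5.11 ± 1.81% (n = 2), 4.77 ± 1.58% and 4.35 ± 0.405% (n = 3 each).

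The nuclear subunits, though 80 genes, took less than 1% of counts in each library. Their share was 0.566 ± 0.169% in fl/fl mock, 0.635 ± 0.00547% in fl/fl treated and 0.839 ± 0.0283% in fl/fl tumors, and 0.621 ± 0.128% (n = 2), 0.718 ± 0.0813% and 0.776 ± 0.0952% in ΔK14 cells. Summed on the TMM scale, they stood at 5315 ± 412 CPM in fl/fl treated skin and 10106 ± 1460 CPM in fl/fl tumors, and at 6329 ± 969 CPM and 9842 ± 1058 CPM in the ΔK14 groups (SD, n = 3). In both genotypes the tumors thus held more nuclear subunit RNA on this scale than treated skin, without overlap (8691 to 11608 CPM in fl/fl tumors, 8630 to 10583 CPM in ΔK14 tumors). The TMM factors differed by stage, at 0.711 to 0.949 in tumors and 1.07 to 1.25 in treated skin, so differences on the TMM scale are larger than those in the plain shares. In plain shares the ΔK14 tumors (0.874%, 0.684% and 0.768%) overlapped ΔK14 treated skin (0.778%, 0.626% and 0.751%), and the fl/fl groups did not overlap. For the mitochondrial genes of ΔK14 cells the scale changed the direction. On the TMM scale they summed to 52960, 42547 and 28806 CPM in treated skin. The ΔK14 tumors held 47649, 55001 and 63749 CPM, which ran higher but overlapped, whereas their mean plain share was lower than that of treated skin.

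**Figure D2:**
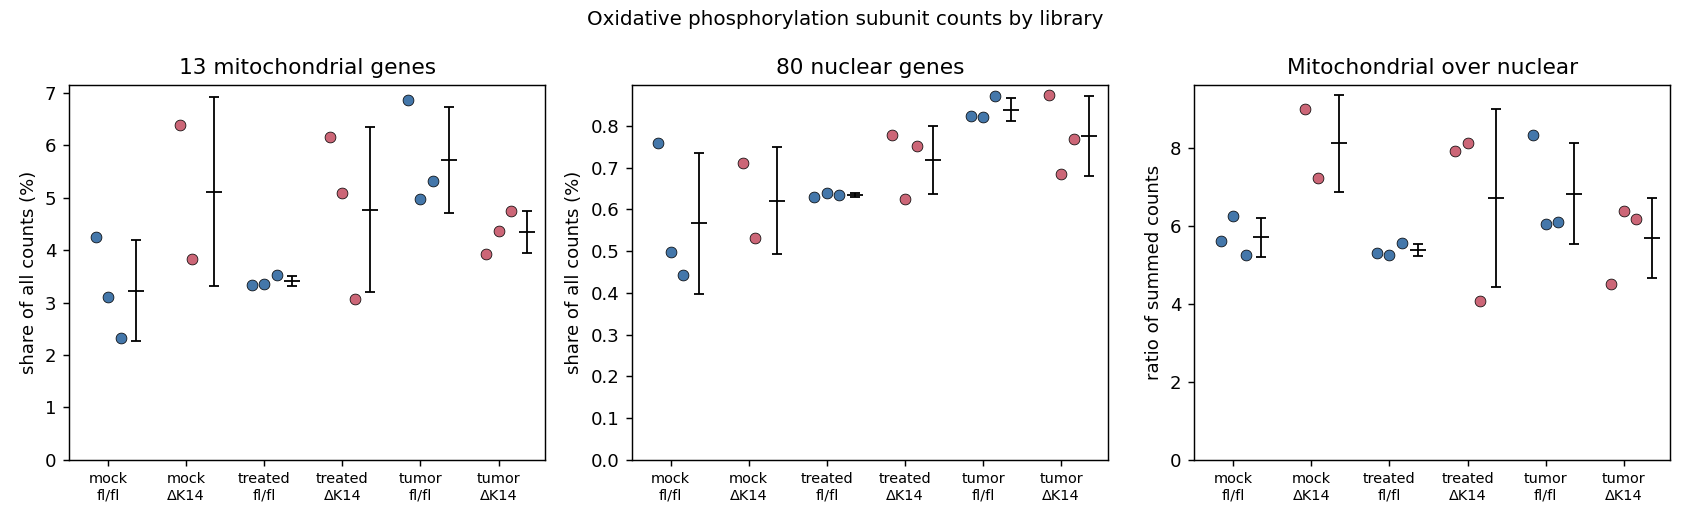
Share of all counts, in percent, in the mitochondrial and the nuclear subunit genes, and the ratio of the former to the latter, for the 17 libraries by group. Points are libraries and black bars the mean ± SD; fl/fl tumors lie above fl/fl treated skin in both shares, and the mitochondrial share of ΔK14 tumors lies within that of ΔK14 treated skin.

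The ratio of mitochondrial to nuclear counts was 5.37 ± 0.157 in fl/fl treated skin, with 5.31, 5.25 and 5.55 in its libraries, and 6.83 ± 1.30 in fl/fl tumors, with 8.33, 6.05 and 6.10. In ΔK14 cells it was 6.71 ± 2.29 in treated skin (7.92, 8.13 and 4.07) and 5.69 ± 1.03 in tumors (4.50, 6.37 and 6.18). Mock skin gave 5.70 ± 0.505 in fl/fl and 8.11 ± 1.24 in ΔK14 (n = 2). The fl/fl tumors were above fl/fl treated skin in all libraries, and the ΔK14 tumors overlapped ΔK14 treated skin. The highest tumor value came from replicate 1, the library with the most ribosomal RNA.

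The comparison of fl/fl tumors with fl/fl treated skin gave the most calls of the 10 comparisons. Of 79 nuclear members tested, 51 rose and 1 fell at an adjusted p under 0.05 (edgeR's quasi-likelihood test with Benjamini-Hochberg adjustment over 15362 genes), and of 13 mitochondrial members 11 rose. For all genes tested, the share that rose was 12.5% and the share that fell 12.6%. The median log2 fold change was 0.79 for nuclear and 1.51 for mitochondrial members, against −0.02 for all genes. Among the latter the 6 neighbors with uncertain counts had 1.41 to 2.05 and the 7 other mitochondrial genes 1.08 to 1.67. Calls over 2-fold numbered 19 among nuclear and 11 among mitochondrial members, in a table where 18% of genes were called over 2-fold in either direction. Without overlap between groups, 66 nuclear and 12 mitochondrial members were higher in tumors, against 21.9% of all genes. Of members with a matched promoter, those that rose numbered 4 of 10 with the NRF1 letters and 37 of 54 without, 4 of 8 with and 37 of 56 without those of YY1, and 4 of 5 with and 37 of 59 without those of ETS and GABP. The number of members called depended on the libraries: 63 with all of them, 10, 26 and 21 without treated fl/fl replicate 1, 2 and 3, 68 and 64 without tumor fl/fl replicates 1 and 2, and 32 without tumor replicate 3. Of the mitochondrial members, 2 were called without each treated library in turn, 12 and 13 without tumor replicates 1 and 2, and 4 without tumor replicate 3. Under each of these omissions and each other setting, 10 members kept their call: Atp5b, Atp5g3, Cox6b1, Cox6c, Cox7a2, Cox7b, Cox8a, Ndufb5, mt-Nd5 and mt-Nd6. The other calls were each lost in at least 1 of these settings.

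In ΔK14 cells, tumors differed from treated skin in fewer members. There, 24 of 79 nuclear members rose and 1 fell, with a median log2 fold change of 0.47, while 0 of 13 mitochondrial members were called (median 0.11). That median pools the 6 neighbors with uncertain counts (−0.39 to 0.11) and the 7 other mitochondrial genes, which were all positive (0.07 to 0.73). The count of 0 came from edgeR; 1 mitochondrial member, mt-Nd6, had an unadjusted p under 0.05, and DESeq2 called the same gene alone. Among all genes in this comparison, 17.6% rose and 19.2% fell, and 26% were called over 2-fold, which 2 members reached. The share of nuclear members that rose was thus above, and that of mitochondrial members below, the share of all genes. Groups did not overlap, with tumors higher, for 55 nuclear and 2 mitochondrial members, against 28.4% of all genes. The total of 25 calls became 4 without treated ΔK14 replicate 2, 5 without tumor replicate 3 and 13 without tumor replicate 1, with 21 to 29 under the remaining omissions. Atp5g3, Cox7b, Ndufa4 and Uqcrc1 were called under every setting.

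Both comparisons, which share no library, called 22 members in the same direction, 34.9% of the 63 fl/fl calls and 88% of the 25 ΔK14 calls. Of all genes, 25% were called in fl/fl and 36.8% in ΔK14 cells, but their overlap was not counted. Whether the shared calls are particular to the members therefore cannot be said. The 3 members called in ΔK14 cells alone were Ndufa2, Ndufa8 and Uqcrc1. Whether the change from treated skin to tumor differed between genotypes was tested as an interaction, and 0 of 92 members passed in edgeR (adjusted p of at least 0.207), where 0.0118% of 17017 genes did. At an unadjusted p under 0.05 there were 24 members, 12 nuclear and 12 mitochondrial, and DESeq2 called 2, mt-Atp8 and mt-Atp6. All 13 mitochondrial interaction terms were negative, that is, the difference in ΔK14 cells was the lower one, with a median log2 value of −1.10, against −0.33 for nuclear members. Among mitochondrial members the median was −2.03 for the 6 neighbors with low counts and −0.99 for the other 7. Without tumor fl/fl replicate 1 the edgeR test called 2 members, mt-Atp8 (−1.80, edgeR adjusted p = 0.0351) and Ndufa4l2 (3.96, edgeR adjusted p = 0.0435).

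**Figure D3:**
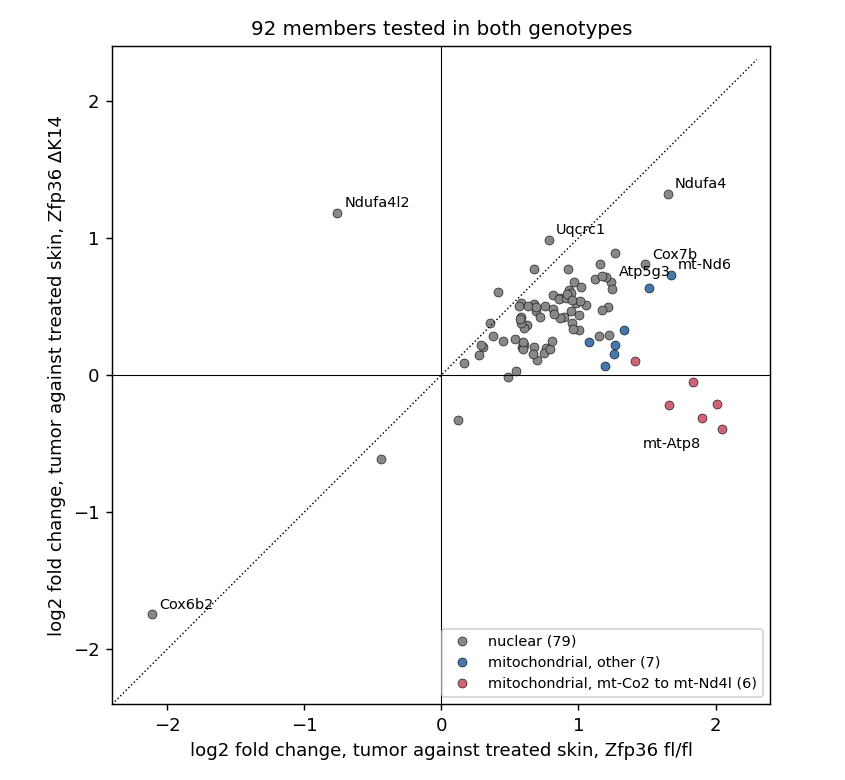
Log2 fold change from treated skin to tumor of each member in fl/fl cells (horizontal axis) and ΔK14 cells (vertical axis), nuclear genes in gray, the 6 mitochondrial genes with low counts in red and the other 7 in blue, with a dotted line of equality. Most nuclear points lie to the right of 0 and above it, while the 13 mitochondrial points lie at 1.08 to 2.05 in fl/fl and at −0.39 to 0.73 in ΔK14 cells.

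Complex I, the NADH dehydrogenase, had the lowest share of calls among the mixed complexes. In fl/fl cells 17 of 36 nuclear members rose from treated skin to tumor (median log2 fold change 0.67), where 12.5% of all genes rose. In ΔK14 cells 6 of 36 rose (median 0.39), which is near the 17.6% of all genes that rose there. Ndufs1, the largest of the core subunits that carry the iron-sulfur clusters, rose in fl/fl cells (log2 fold change 0.67 ± 0.17, SE, edgeR adjusted p = 0.027), and its ΔK14 value was 0.15 ± 0.18 (0.536). Ndufs7, which holds the cluster next to the quinone, had 0.16 ± 0.21 and 0.09 ± 0.21 (edgeR adjusted p = 0.594 and 0.767). Ndufb5, a membrane-arm subunit, was at 58.9, 65.6 and 66.8 CPM in fl/fl treated skin and at 142, 121 and 127 CPM in fl/fl tumors. That difference (1.0 ± 0.16, edgeR adjusted p = 0.00635) kept its call under each setting. In ΔK14 cells Ndufb5 was at 84.3, 62.4 and 96.7 CPM in treated skin and 112, 98.0 and 115 CPM in tumors, close to but not overlapping (0.33 ± 0.19, edgeR adjusted p = 0.196).

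The 7 mitochondrial subunits of complex I form the core of the proton-pumping membrane arm. mt-Nd6 was measured at 1291, 1376 and 1205 CPM in fl/fl treated skin and at 5230, 3345 and 4001 CPM in fl/fl tumors, which differed by 1.67 ± 0.24 on the log2 scale (edgeR adjusted p = 0.00395). In ΔK14 cells the values were 2450, 1962 and 1423 CPM in treated skin and 2963, 3449 and 3995 CPM in tumors, which did not overlap but missed the threshold (0.73 ± 0.26, edgeR adjusted p = 0.0527). mt-Nd5 behaved alike, with 3993, 3986 and 3628 CPM against 14314, 9481 and 10018 CPM in fl/fl (1.51 ± 0.26, edgeR adjusted p = 0.0072) and 7938, 6161 and 4028 CPM against 8423, 10103 and 11795 CPM in ΔK14 cells (0.64 ± 0.30, 0.127). For both genes the ΔK14 treated libraries varied more than the fl/fl ones. mt-Nd1 showed fl/fl values of 3807, 4570 and 4510 CPM in treated skin and 16263, 8050 and 8897 CPM in tumors (1.34 ± 0.32, edgeR adjusted p = 0.0225), and the difference was 0.96 without tumor fl/fl replicate 1. Its ΔK14 values overlapped, at 8405, 6687 and 4126 CPM and at 7796, 8341 and 9826 CPM (0.33 ± 0.30, edgeR adjusted p = 0.416). Tumor fl/fl replicate 1 held the highest level of each of these 3 genes. Without treated ΔK14 replicate 1, the ΔK14 differences of mt-Nd6 (0.94, edgeR adjusted p = 0.0239) and mt-Nd5 (0.89, 0.0475) passed the threshold as well.

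Complex II, succinate dehydrogenase, which also works in the tricarboxylic acid cycle, had the fewest calls. Only Sdha, the flavoprotein, was called among its 4 members, and only in fl/fl cells (0.63 ± 0.17, edgeR adjusted p = 0.03). Sdha was at 86.7, 83.8 and 83.9 CPM in fl/fl treated skin and 147, 119 and 135 CPM in fl/fl tumors. The ΔK14 values were 91.9, 83.7 and 107 CPM and 151, 107 and 129 CPM, which overlap at 107 CPM (0.36 ± 0.19, edgeR adjusted p = 0.162). Sdhb, Sdhc and Sdhd had log2 fold changes of 0.28 to 0.68 over both genotypes and did not pass.

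Complex III, the cytochrome bc1 complex, rose in 7 of 8 nuclear members in fl/fl cells (median 0.99) and in 3 of 8 in ΔK14 cells (median 0.55). Among all genes, 12.5% and 17.6% rose in these comparisons. Uqcrc1, a core protein whose promoter is shown above, was the member of the complex not called in fl/fl cells (0.78 ± 0.27, edgeR adjusted p = 0.0701) and the one with the strongest ΔK14 call (0.99 ± 0.21, 0.00752). It was at 156, 186 and 125 CPM in fl/fl treated skin and 390, 213 and 217 CPM in fl/fl tumors, where replicate 1 stood far above the others (0.45 without it). In ΔK14 cells it was at 164, 144 and 236 CPM in treated skin and 396, 333 and 415 CPM in tumors. Uqcrfs1, the Rieske iron-sulfur protein, rose in both genotypes (0.91 ± 0.16 and 0.56 ± 0.18, edgeR adjusted p = 0.00834 and 0.0418). The mitochondrial subunit, cytochrome b (mt-Cytb), had 1.26 ± 0.28 in fl/fl (edgeR adjusted p = 0.018) and 0.15 ± 0.28 in ΔK14 cells (0.704).

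**Figure D4:**
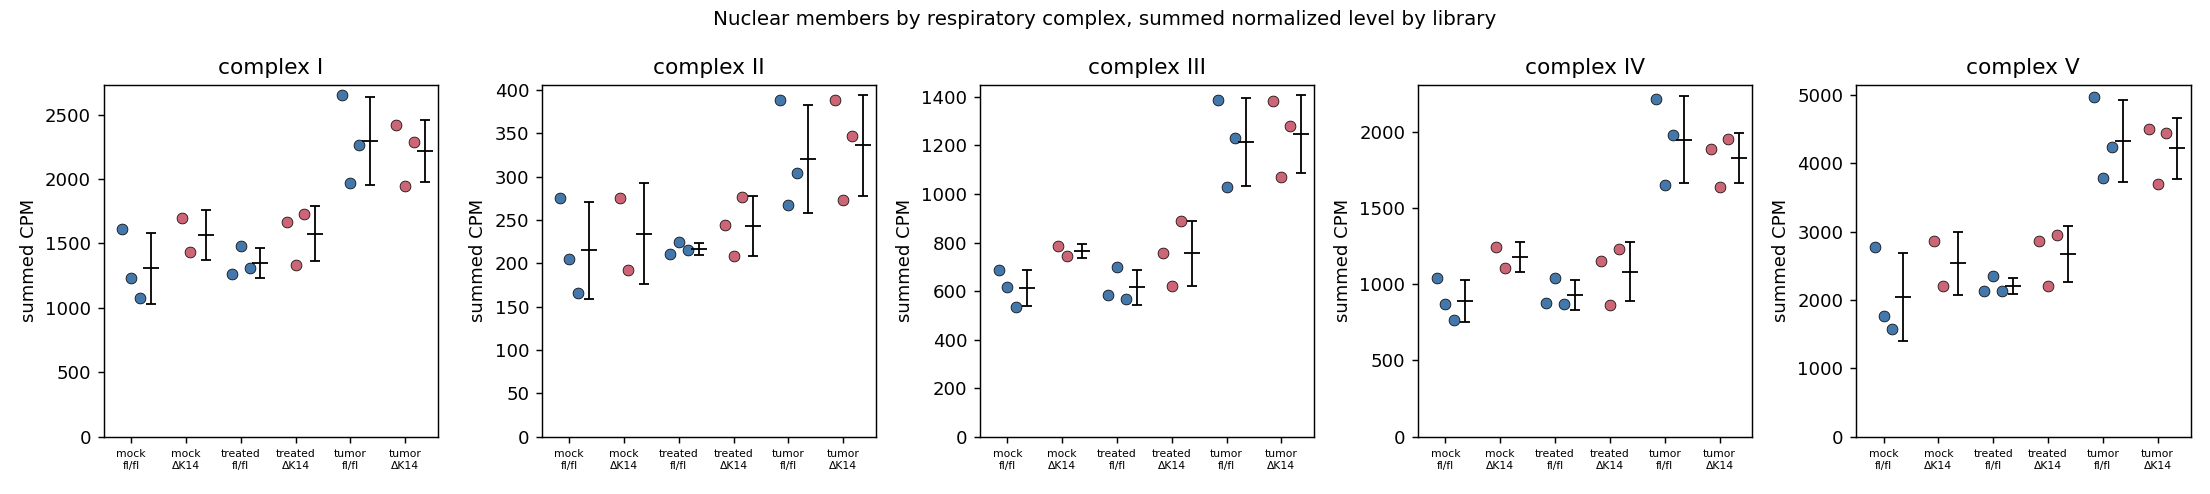
Summed CPM of the nuclear members of complexes I to V, a panel each, by group, with each point a library (fl/fl blue, ΔK14 red) and black bars at the mean ± SD. Tumors lie above treated skin without overlap in both genotypes for complexes I, III, IV and V, while for complex II the ΔK14 groups (243 ± 34.4 and 336 ± 58.0 CPM) overlap.

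Complex IV, cytochrome c oxidase, had 12 nuclear members that rose and 1 that fell among 14 tested in fl/fl cells (median 0.96), and 8 and 1 in ΔK14 cells (median 0.64). Of all genes, 12.5% rose and 12.6% fell in fl/fl cells, and 17.6% and 19.2% in ΔK14 cells. Ndufa4 had the largest nuclear rise in both genotypes with all libraries. It was at 40.1, 35.7 and 48.2 CPM in fl/fl treated skin and 215, 87.8 and 99.6 CPM in fl/fl tumors (1.65 ± 0.35, edgeR adjusted p = 0.0151). Without tumor fl/fl replicate 1 the fl/fl value was 1.16, below those of Cox7b and Atp5g3, and the call was lost without treated fl/fl replicate 1 or 2 (edgeR adjusted p up to 0.0747). In ΔK14 cells it was at 68.7, 58.0 and 67.6 CPM in treated skin and 165, 147 and 207 CPM in tumors (1.32 ± 0.18, edgeR adjusted p = 0.0014). Without tumor fl/fl replicate 1 the comparison of tumors between genotypes called Ndufa4 higher in ΔK14 cells (0.78, edgeR adjusted p = 0.0202), and with all libraries it did not. Cox7b, a small subunit encoded on the X chromosome, was at 62.1, 84.9 and 68.0 CPM against 216, 160 and 235 CPM in fl/fl cells and at 96.5, 80.5 and 99.4 CPM against 193, 154 and 169 CPM in ΔK14 cells. Both differences passed (1.49 ± 0.22 and 0.81 ± 0.17, edgeR adjusted p = 0.0043 and 0.00747), and no tumor library overlapped treated skin. Cox4i1, the ubiquitous form of subunit 4, was even among tumors, at 301, 295 and 295 CPM in fl/fl and 255, 239 and 286 CPM in ΔK14, against 125 to 187 CPM in all treated libraries. The catalytic mitochondrial subunit mt-Co1 was at 8939, 10411 and 9778 CPM in fl/fl treated skin and 30816, 14560 and 17308 CPM in fl/fl tumors. It missed the threshold in fl/fl (1.08 ± 0.34, edgeR adjusted p = 0.0511) and in ΔK14 cells (0.24 ± 0.27, 0.515), and it passed in fl/fl without tumor replicate 1 (0.70, edgeR adjusted p = 0.032) or without tumor replicate 2.

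Among isoforms of complex IV that are typical of other tissues, Cox6b2 and Cox7a1 were rare, and only Cox6b2 was tested between tumors and treated skin. Cox6b2, the testis isoform of subunit 6b, was the called member that fell. It was at 3.04, 3.07 and 3.92 CPM in fl/fl treated skin and 0, 1.37 and 0.328 CPM in fl/fl tumors (−2.11 ± 0.65, edgeR adjusted p = 0.049), and at 2.15, 2.74 and 2.71 CPM against 1.34, 0.544 and 0.57 CPM in ΔK14 cells (−1.74 ± 0.46, 0.0185). The call rested on few counts and was lost under 4 of 6 omissions of a library in fl/fl and 3 of 6 in ΔK14 cells. The common isoform Cox6b1 rose in both genotypes (1.26 ± 0.19 and 0.89 ± 0.23, edgeR adjusted p = 0.00509 and 0.0172). Cox7a1, the heart and muscle isoform, was at 0 to 5.65 CPM and was not tested between tumors and treated skin. Ndufa4l2, a paralog of Ndufa4 known to be induced by hypoxia, varied widely inside groups, at 28.6, 55.3 and 13.9 CPM in fl/fl treated skin, 5.38, 8.09 and 38.9 CPM in ΔK14 treated skin, 52.7, 3.51 and 6.56 CPM in fl/fl tumors and 47.9, 22.7 and 54.0 CPM in ΔK14 tumors. Its stage differences did not pass (−0.76 ± 0.93 and 1.18 ± 0.65, edgeR adjusted p = 0.575 and 0.182). Leaving out tumor fl/fl replicate 1 moved the fl/fl value to −2.77 (edgeR adjusted p = 0.00935) and the difference between tumor genotypes to 3.02 (0.00152), so 1 library decides it. In ΔK14 cells the stage difference passed without treated ΔK14 replicate 3 (2.51, edgeR adjusted p = 0.00296).

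Complex V, the ATP synthase, rose in 14 of 17 nuclear members in fl/fl cells (median 0.86) and in 7 of 17 in ΔK14 cells (median 0.42). All 5 subunits of its soluble head and central stalk were called in fl/fl cells, and 2 in ΔK14 cells. The shares of all genes that rose were 12.5% in fl/fl and 17.6% in ΔK14 cells. Atp5b, the catalytic beta subunit, stood at 581, 586 and 549 CPM in fl/fl treated skin and 1521, 1132 and 1248 CPM in fl/fl tumors. In ΔK14 cells it was at 753, 541 and 809 CPM and 1421, 1118 and 1369 CPM, again without overlap. The log2 fold changes were 1.16 ± 0.19 and 0.81 ± 0.21 (edgeR adjusted p = 0.0068 and 0.0172). Atp5s and Atp5sl, which are not subunits, had 0.12 ± 0.40 and −0.44 ± 0.31 in fl/fl cells and −0.33 ± 0.34 and −0.61 ± 0.24 in ΔK14 cells, and did not pass.

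Subunit c of the membrane ring is encoded by 3 genes for the same mature protein, which differ in their import signals. Atp5g3 was at 90.9, 99.8 and 102 CPM in fl/fl treated skin and 261, 199 and 246 CPM in fl/fl tumors, and at 115, 116 and 132 CPM and 215, 198 and 205 CPM in the ΔK14 groups. It rose in both (1.24 ± 0.18 and 0.68 ± 0.16, edgeR adjusted p = 0.00434 and 0.0102). Atp5g1 passed in fl/fl cells alone (0.77 ± 0.23 and 0.20 ± 0.18, edgeR adjusted p = 0.0445 and 0.425), and Atp5g2 in neither (0.29 ± 0.24 and 0.22 ± 0.20, 0.412 and 0.418). Whether Atp5g1 differed between genotypes is part of the interaction above, which called no member. The share of Atp5g3 in the summed CPM of the 3 genes was 53.6 ± 1.17% in fl/fl treated skin and 65.8 ± 4.44% in fl/fl tumors, with no overlap, and 56.4 ± 5.20% and 64.1 ± 2.39% in the ΔK14 groups (SD, n = 3). In fl/fl mock skin it ran from 53.3% to 64.3%, which overlapped fl/fl tumors (60.9% to 69.6%). The ΔK14 mock libraries (n = 2) were at 44.6% and 56.5%, below the ΔK14 tumors.

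The 2 mitochondrial subunits of complex V overlap on one transcript and belong to the 6 genes with low counts. mt-Atp8 was at 17.3, 24.6 and 19.2 CPM in fl/fl treated skin and 148, 36.3 and 75.1 CPM in fl/fl tumors (2.05 ± 0.47, edgeR adjusted p = 0.0188), and at 47.5, 45.8 and 22.5 CPM against 33.3, 31.2 and 30.6 CPM in ΔK14 cells (−0.39 ± 0.29, 0.326). mt-Atp6 was at 35.0, 57.9 and 40.4 CPM against 288, 68.6 and 151 CPM in fl/fl cells (1.90 ± 0.48, edgeR adjusted p = 0.0255) and at 92.4, 98.6 and 47.2 CPM against 73.6, 64.3 and 68.2 CPM in ΔK14 cells (−0.32 ± 0.29, 0.414). The fl/fl tumors differed among themselves by more than the ΔK14 tumors, in an order that was also that of their ribosomal RNA share: 21.3%, 9.06% and 16.5% of counts. The highest mock value of mt-Atp8, 96.6 CPM, came from a ΔK14 library with 15.1% ribosomal RNA, and the ΔK14 mock library with 20.4% had 58.0 CPM. The part of ribosomal RNA content in these values was not tested. Without tumor fl/fl replicate 1 the fl/fl log2 fold changes were 1.43 for mt-Atp8 and 1.28 for mt-Atp6. The interaction term was −2.42 ± 0.59 for mt-Atp8 and −2.20 ± 0.60 for mt-Atp6, both with an edgeR adjusted p of 0.207. Without treated ΔK14 replicate 3, both genes were called lower in ΔK14 tumors than in treated skin (−0.64 for mt-Atp8 and −0.56 for mt-Atp6, edgeR adjusted p = 0.0275 and 0.0409), and in fl/fl cells both lost their call without each treated fl/fl library in turn.

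**Figure D5:**
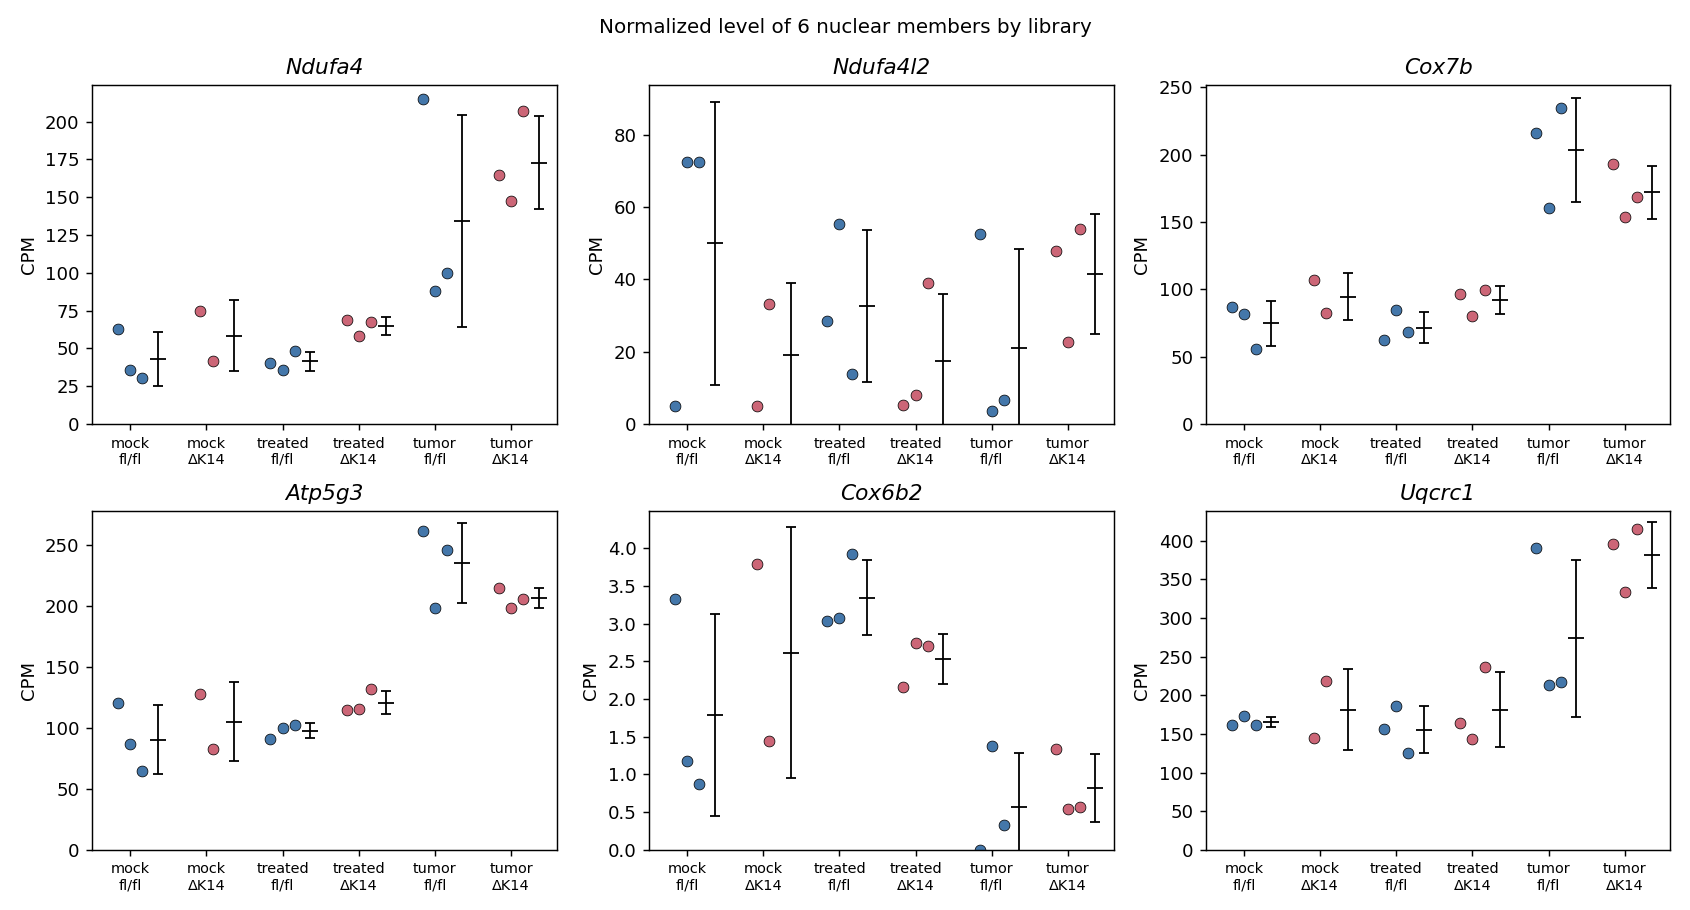
CPM of 6 nuclear members by group, a panel each, with each point a library (fl/fl blue, ΔK14 red) and black bars at the mean ± SD, which end at 0 where they would pass below it (in panels Ndufa4l2 and Cox6b2). Cox7b and Atp5g3 separate tumors from treated skin in both genotypes, Ndufa4 and Uqcrc1 show the high fl/fl tumor replicate 1, and Ndufa4l2 spreads within groups.

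Genotypes were compared next within each stage. In tumors 0 of 91 members were called between ΔK14 and fl/fl (edgeR; 5 at an unadjusted p under 0.05, and 1 in DESeq2, mt-Atp8 at −1.57 with a DESeq2 adjusted p of 0.029), where 0.0284% of all genes were. The median log2 difference was −0.16 for nuclear and −0.57 for mitochondrial members, and all 13 of the latter were lower in ΔK14 tumors. The 6 mitochondrial neighbors with uncertain counts had −1.56 to −0.56 and the 7 others −0.57 to −0.29. Without tumor fl/fl replicate 1 the mitochondrial median moved to −0.29 and 5 members were called, among them Uqcrc1 (0.72, edgeR adjusted p = 0.0175), Ndufa4 (0.78, 0.0202), Ndufa4l2 (3.02, 0.00152) and mt-Atp8 (−0.90, 0.045). In treated skin 0 of 92 members were called (edgeR; 15 at an unadjusted p under 0.05, 0 in DESeq2), against 0.00616% of all genes, with medians of 0.24 and 0.63. In mock skin 0 of 92 members were called (edgeR; 4 at an unadjusted p under 0.05, 0 in DESeq2), against 0% of all genes, with medians of 0.31 and 0.84. With 2 libraries in the ΔK14 mock group the latter comparison is the weakest, and it did not call Zfp36 either (−4.13, edgeR adjusted p of 1.0), which it called in treated skin and in tumors.

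No member passed the test between treated and mock skin with all libraries. In fl/fl cells 0 of 92 members were called (edgeR; 0 at an unadjusted p under 0.05, 0 in DESeq2), against 0% of all genes, with median log2 differences of 0.06 for nuclear and −0.17 for mitochondrial members. Without mock fl/fl replicate 1, 13 members rose, so this library decides the count. In ΔK14 cells 0 of 92 were called (edgeR; 1 at an unadjusted p under 0.05, 0 in DESeq2), again against 0% of all genes, with medians of −0.01 and −0.34.

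Against mock skin, fl/fl tumors were higher in 3 of 78 nuclear members, Cox7b (1.42), Uqcrh (1.07), a hinge protein of complex III, and Cox4i1 (1.07), where 2.22% of all genes rose. The median was 0.87 for nuclear and 1.32 for mitochondrial members. No mitochondrial member was called by edgeR (0 of 13; 12 at an unadjusted p under 0.05, 10 in DESeq2). The 3 calls became 56 without mock fl/fl replicate 1 and 0 without any other single library. In ΔK14 cells, Ndufa4 rose from mock skin to tumor (1.47 ± 0.34, edgeR adjusted p = 0.0379), and mt-Atp8 (−1.38 ± 0.29, 0.0299) and mt-Atp6 (−1.26 ± 0.29, 0.0365) fell, while 7.13% of all genes rose and 7.27% fell. Both mitochondrial genes are among those with low counts, and the medians were 0.44 for nuclear and −0.16 for mitochondrial members. The 6 mitochondrial genes with low counts had −1.38 to 0.07 and the 7 others −0.31 to 0.37. These 3 calls became 29 without mock ΔK14 replicate 1, 9 without replicate 2 and 0 without any tumor library. The comparisons of tumors with mock and with treated skin share the tumor libraries.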

How the data were processed

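Counts per gene were deposited by the authors as raw whole numbers for 18 columns, 3 in each of 6 groups, made with the Ovation SoLo system and an Illumina HiSeq. The submitters' processing notes list Trimmomatic 0.36, STAR 2.5.3, HTSeq 0.9.1, DESeq2 and mm10; their roles, the annotation, the use of strand and the handling of reads with several placements are not given in the sources used here. Groups came from the labels. Identical columns entered once.

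Each comparison was fitted on its own libraries over all genes in R 4.3.3 with edgeR 4.0.16 (filterByExpr, TMM, quasi-likelihood F test, two-sided, Benjamini-Hochberg adjustment over all genes tested), with 0.05 as the limit of the adjusted p for a call. The study states pairwise edgeR tests. Cox7a1 failed the low-count filter in tumors against treated skin. The procedure was tested on simulated data. CPM use TMM-scaled library sizes, and levels per kb the exon length annotated on GRCm38. Shared sequence was measured as 31-base words. Shares of counts were described without a test.

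The members, gene lists and tests were chosen with earlier results of these data known. Genes were named by a rule: the 13 mitochondrial members, core nuclear subunits, isoform sets, the 5 members with the smallest p in each direction, and Zfp36. Ndufb5, Ndufa2, Uqcrh, the non-subunits Atp5s and Atp5sl, and members with promoter motifs or pseudogene copies fell partly outside it and were chosen after their values were seen. Alternatives were DESeq2 1.42.0, RLE scaling, 1 fit over the 17 libraries, scaling without mitochondrial and ribosomal RNA genes, no low-count filter, the replicate number as a block, identical columns as separate libraries, and each library left out in turn. PCR duplicates are not independent molecules, so depth gives counting error only. Other experiments of the study were not analyzed here. The values of 1 subunit gene are not reported here.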

Additional observations from a re-analysis of the deposited data

How the results depend on the processing

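No direction turned under the alternatives listed above for the counts and shares given. The choice of scale did turn the mitochondrial sum of ΔK14 cells between treated skin and tumors. It was lower in tumors as a mean plain share and ran higher in CPM, with overlap on both scales. With a library left out, members called numbered 10 to 68 in fl/fl tumors against treated skin, 4 to 29 in the same ΔK14 comparison, 0 to 56 and 0 to 29 in tumors against mock skin (fl/fl and ΔK14), 0 to 5 between tumor genotypes, 0 to 13 in fl/fl treated against mock skin and 0 to 2 for the interaction, and the counts of the other comparisons remained 0. The mitochondrial median without fl/fl tumor replicate 1 was −0.29 between tumor genotypes and 1.15 in fl/fl tumors against treated skin. DESeq2 called 1 member between tumor genotypes, 44 and 9 in tumors against mock skin (fl/fl and ΔK14) and 2 for the interaction. A single fit of all libraries called 67 and 13 in tumors against mock skin, and no low-count filter called 22 and 8 there, 6 between tumor genotypes, 2 between treated genotypes and 7 for the interaction. Counting the identical columns separately gave 25 in ΔK14 tumors against mock skin. With the replicate number as a block, 31 members were called in fl/fl tumors against treated skin, 4 between mock genotypes, and 0 in both comparisons of tumors with mock skin; the block moved no other count by over 1.5 times. The causes of these differences were not tested. In no comparison with 3 same-numbered pairs did all deviate together (correlations of −0.546 to 0.391), so the numbers were not taken as pairs. Comparisons with 2 pairs gave 0.782 and 0.569 between mock genotypes, 0.569 and 0.141 in ΔK14 treated against mock skin, and 0.094 and 0.124 in ΔK14 tumors against mock skin. The mitochondrial share of counts depended on what was summed: with the mitochondrial ribosomal RNA genes it was 4.79%, 5.26% and 8.92% in fl/fl mock, treated and tumor libraries and 8.57%, 6.75% and 6.15% in ΔK14 ones. With other mitochondrial and ribosomal RNA genes left out of the total, it was 3.85% in fl/fl treated skin, 6.87% in fl/fl tumors and 4.87% in ΔK14 tumors, and the nuclear share was 0.754% in ΔK14 mock, 0.717% and 0.807% in fl/fl and ΔK14 treated skin and 1.0% in fl/fl tumors. Depth limits the rare members most, such as Cox6b2 (206 counts in all), mt-Nd3 (447) and mt-Nd4l (527).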

Other observations

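Among genes that build or translate the respiratory chain, few were called. From treated skin to tumor in fl/fl cells, 3 of 47 assembly factors rose and 1 fell (median log2 fold change 0.20), as did 5 and 0 of 78 mitochondrial ribosomal proteins (0.30) and 2 and 2 of 26 genes of mitochondrial transcription and RNA handling (0.15), where 12.5% of all genes rose and 12.6% fell. In ΔK14 cells the counts were 3 and 4 of 47 (−0.15), 3 and 0 of 78 (0.14) and 1 and 4 of 27 (−0.18), where 17.6% rose and 19.2% fell. The tricarboxylic acid cycle and pyruvate dehydrogenase feed NADH and succinate to the chain. Their list of 21 genes also held the kinases that inhibit pyruvate dehydrogenase (the Pdk genes). Of these 21, 10 rose and 1 fell in fl/fl cells (0.63), and 9 and 2 in ΔK14 cells (0.41). Dlat, the acetyltransferase of pyruvate dehydrogenase, rose in both (1.40 ± 0.21 and 0.91 ± 0.18, edgeR adjusted p = 0.00496 and 0.00521), and Pdk2, a kinase that inhibits that enzyme, fell in both (−3.09 ± 0.33 and −1.81 ± 0.40, edgeR adjusted p = 0.00185 and 0.00876). A further list of 13 genes held Cycs, Cyc1 (cytochrome c1 of complex III) and the Coq genes, which serve coenzyme Q. Of these, 4 rose and 1 fell in fl/fl (0.67) and 2 and 1 in ΔK14 cells (0.01). Cycs, the electron carrier cytochrome c, rose in both genotypes (1.44 ± 0.18 and 0.80 ± 0.18, edgeR adjusted p = 0.00284 and 0.00974).

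Known regulators of these genes did not move one way. Of 15, 4 rose and 2 fell in fl/fl (median 0.14) and 3 rose and 4 fell in ΔK14 cells (−0.07). Ppargc1a, a coactivator that raises mitochondrial gene expression, fell in both genotypes (−2.25 ± 0.67 and −3.32 ± 0.67, edgeR adjusted p = 0.0431 and 0.00636). Its calls rested on few counts, at 2.0 to 2.7 CPM in fl/fl and 2.3 to 4.2 CPM in ΔK14 treated skin. In tumors Ppargc1a was at 0 to 0.76 and 0 to 0.67 CPM. Nrf1 fell in both as well (−0.88 ± 0.20 and −0.58 ± 0.17, edgeR adjusted p = 0.0198 and 0.0281). Yy1 rose (0.61 ± 0.16 and 0.79 ± 0.16, edgeR adjusted p = 0.0293 and 0.00646), and so did Hif1a, the hypoxia factor (2.56 ± 0.24 and 2.15 ± 0.41, 0.00121 and 0.00508). Tfam, which packs and transcribes mitochondrial DNA, had 0.09 ± 0.20 and −0.23 ± 0.26 and did not pass (edgeR adjusted p = 0.75 and 0.502).

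The heptamer TATTTAT, to which tristetraprolin binds as an AU-rich element, stood in the annotated 3′ UTR of 6 of 80 nuclear members (7.5%), against 27.6% of 20941 genes. The UTRs of members were also shorter, with a median of 219 bases against 961.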
